A study of Mus musculus with 4 samples.

Results

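Mitochondrial ribosomal proteins are encoded in the nucleus under the symbols Mrpl (large subunit) and Mrps (small subunit). They were followed in mouse embryonic stem cells with and without functional Chd1. Members were taken by symbol: a gene had to match Mrpl or Mrps, a number and at most 1 further letter, and to be a locus of its own in the tables of both sets. Of 76 such symbols, 73 met this, 46 Mrpl and 27 Mrps, among 11728 genes named once in both tables. All 73 reached 1 FPKM on average across the 4 libraries and were among the 10261 genes tested. Mrpl52 was chosen by its measured change between Chd1-null and control cells, so its change is described here without a test.

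The mitochondrial ribosome translates the few messenger RNAs of the mitochondrial genome, which encode core subunits of the respiratory chain and of ATP synthase. Its RNA comes from the mitochondrial genome, while all of its proteins are made in the cytosol and imported. Some of these proteins descend from those of bacterial ribosomes and others were added in the mitochondrial lineage. Chd1, the gene deleted here, encodes a chromatin remodeler of transcribed genes.

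All cells carried Rosa26CreER, a Cre recombinase that tamoxifen activates, with 1 floxed and 1 null allele of Chd1. Control cells received ethanol and kept their floxed allele, so they held 1 functional copy; Chd1-null cells received 1 µM tamoxifen for 48 to 72 h. Both were then passaged 3 to 5 times in serum with LIF before RNA was taken from equal numbers of viable cells. There were 2 sets, each with 1 control and 1 Chd1-null library (n = 2 pairs). The protocol names 2 separately derived lines, and the labels do not say which set holds which. In bulk RNA, fewer cells holding a transcript and less of it per cell cannot be told apart.

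In set 1 the Chd1 transcript read 27.6 FPKM (control) against 5.71 (Chd1-null), and in set 2 it read 17.9 against 8.52. The Chd1-null libraries thus kept 20.7% and 47.7% of the control value, and this share differed between the sets in which every member below is compared. FPKM is a fragment count scaled to transcript length and library depth; summed over loci it ran from 466994 to 719549 per library. The 10 embryonic stem cell markers summed to 2755 FPKM (control) and 2014 (Chd1-null) in set 1, and to 3453 and 1919 in set 2, lower in Chd1-null cells in each set. That is 0.731 and 0.556 of control, where the median gene tested stood at 0.727 and 0.796. Abundant markers weigh most in these sums, with values up to 2088 FPKM beside medians per library of 36.6 to 86.0. The 3 neural markers summed to 14.0 and 15.1 FPKM in set 1 and to 12.7 and 16.2 in set 2, higher in each. Their median per library was only 0.931 to 2.69 FPKM and the highest value 14.0, so these sums rest mostly on the highest marker. The 5 of 8 fibroblast markers found in both tables summed to between 2.65 and 8.29 FPKM per library, the 3 of 4 trophectoderm markers to between 2.91 and 9.27, and the 1 of 5 primitive endoderm markers to at most 0.379. Their part in the results below was not tested. The median gene tested had a log2 ratio of Chd1-null over control of -0.46 in set 1 and -0.33 in set 2.

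Members were abundant and kept nearly the same order of levels in every library. In control cells the median member stood at 39.5 FPKM in set 1 and 37.5 in set 2, against 10.3 for the median gene tested in each. Together the 73 members held 0.574% (control) and 0.711% (Chd1-null) of the FPKM sum in set 1, and 0.501% and 0.570% in set 2. Between the most and the least abundant member lay a factor of 37.1 in control 1 and 69.4 in control 2. Members are parts of 1 particle, yet their transcript levels were far from equal.

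The most abundant member was Mrpl20, a large subunit protein with a bacterial homolog. In set 1 it read 149.5 FPKM (control) and 191.2 (Chd1-null), and in set 2 it read 218.4 and 202.1. Mrpl28, Mrpl24 and Mrpl13, also large subunit proteins with bacterial homologs, followed with means over the 4 libraries of 137.7, 106.7 and 106.5 FPKM. At the other end, Mrpl41, a mitochondria-specific protein of the large subunit, stood between 2.97 and 4.03 FPKM. Mrpl17 ranged from 3.91 to 4.89 FPKM and Mrps25 from 7.34 to 8.49. The lowest 3 members did not overlap the highest 4 in any library, which follows from picking both groups by mean level in these libraries.

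Across members, log2 levels in control 1 and control 2 had Pearson r = 0.95 (Spearman rho = 0.94, n = 73 genes). This describes 2 libraries of the same cell type, and genes are not replicates. Over all genes tested r was 0.94. Of the 10 highest members, 9 were shared by the controls. Levels were within 1.5-fold of each other for 67 members. Mrpl19, Mrpl15, Mrpl1 and Mrpl52 stood 2.03, 1.96, 1.88 and 1.71 times higher in control 1, while Mrps17 and Mrpl24 stood lower there, at 0.636 and 0.647 of control 2, a comparison across tables that may have been scaled apart. Large subunit members had a higher median than small subunit members in each control, at 42.9 against 31.6 FPKM in set 1 and 48.0 against 36.0 in set 2. In each control the small subunit range lay inside that of the large subunit, at 8.03 to 103.1 within 4.03 to 149.5 FPKM in set 1 and 7.73 to 131.4 within 3.15 to 218.4 in set 2.

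**Figure D1:**
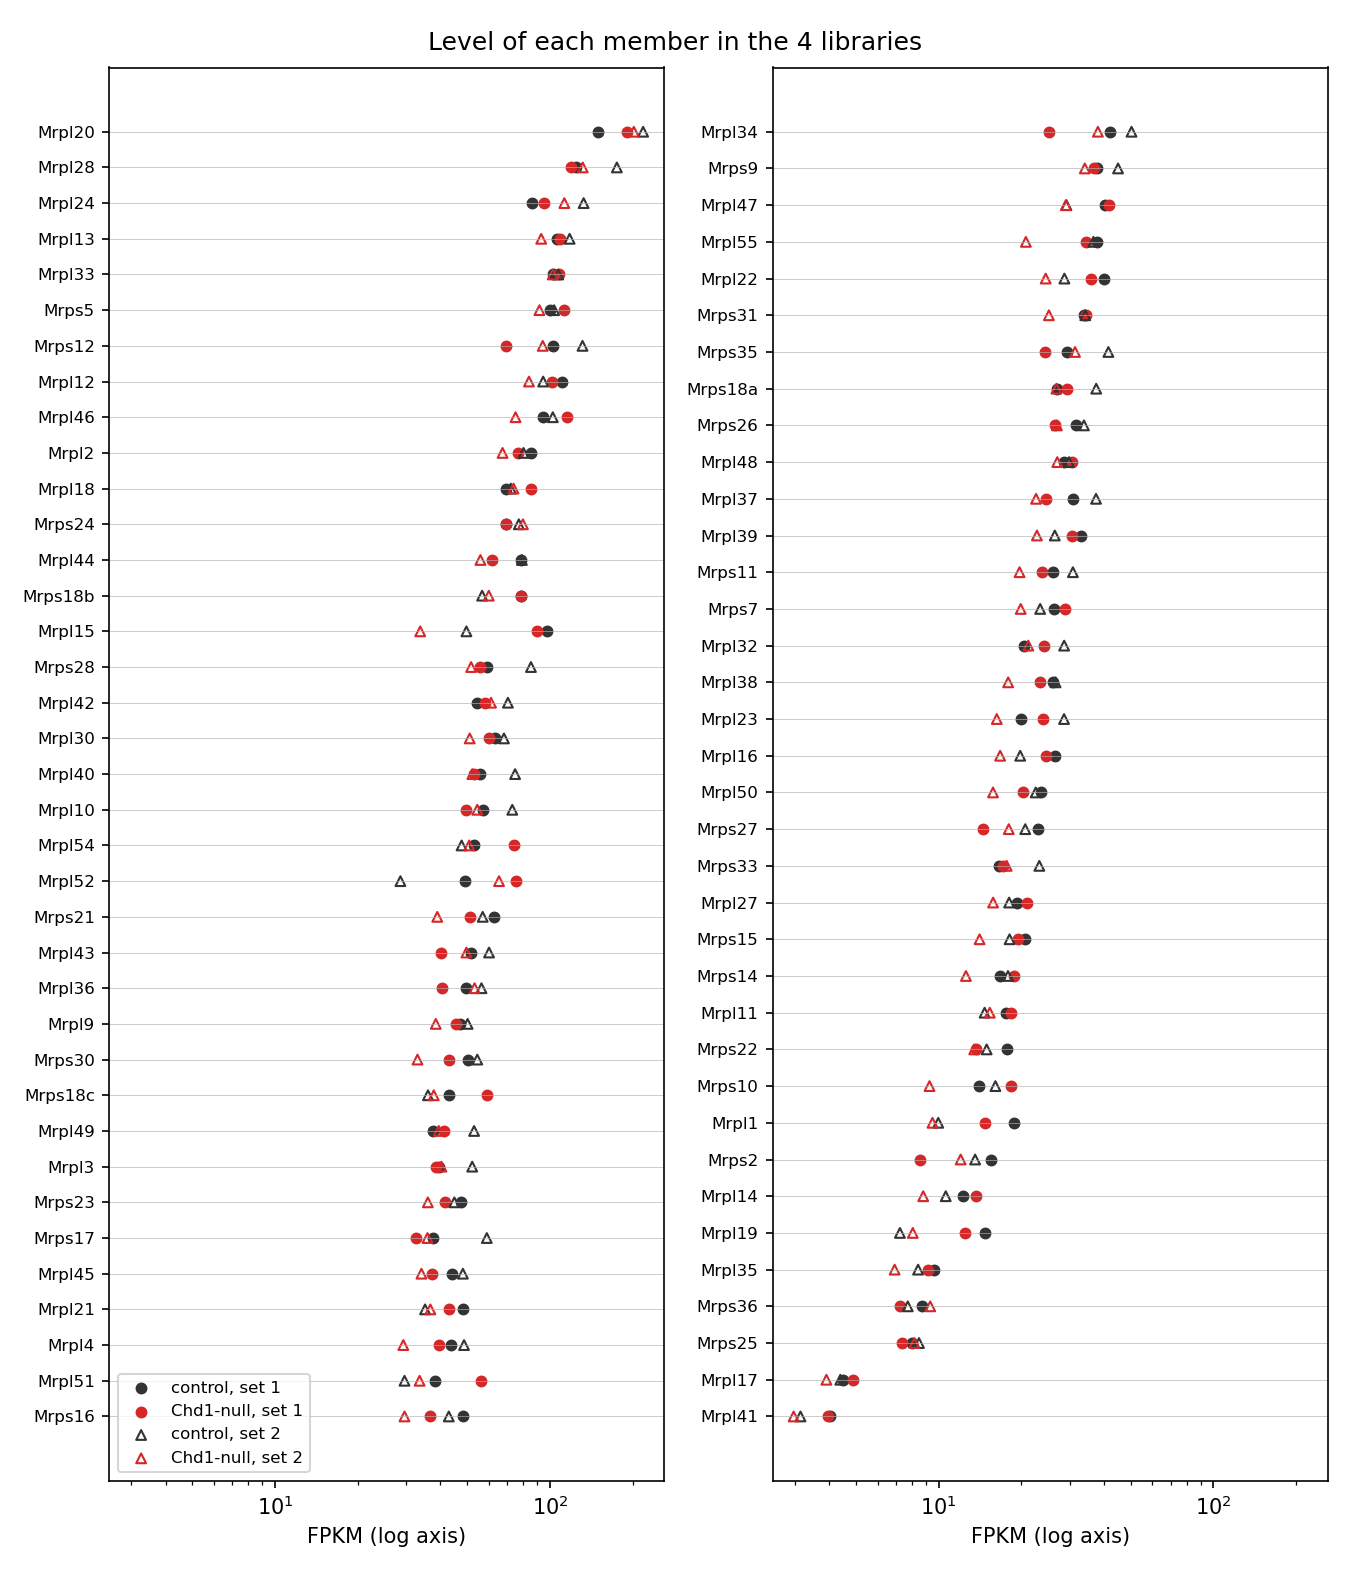
FPKM (log axis) of each of the 73 members in the 4 libraries, ordered by mean level; filled circles are set 1, open triangles set 2, black control and red Chd1-null, 1 value per symbol. Mrpl20 leads and Mrpl41 is lowest in every library, and for most members the 4 values lie close together, with Mrpl52 among the exceptions.

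Chd1-null cells held slightly less of most of these transcripts, and the size of the difference depended on the set. In set 1 the median member stood at 0.950 of its control (log2 ratio -0.07, quartiles -0.23 and 0.12), whereas the median gene tested stood at 0.727. In set 2 the median member stood at 0.801 (log2 ratio -0.32, quartiles -0.48 and -0.14), close to 0.796 for the median gene tested. The mean of the members' medians was -0.20 ± 0.17 (SD, n = 2 sets), against -0.39 ± 0.09 for all genes tested. An exact test that flips signs over 2 pairs cannot give a two-sided p below 0.5, and none was run.

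Of 73 members, 45 were lower in Chd1-null cells in set 1 (61.6%, against 87.3% of all genes tested) and 62 in set 2 (84.9%, against 82.4%). In both sets 41 were lower (56.2%, against 72.4% of all genes tested) and 7 were higher (9.59%, against 2.81%). The other 25 went opposite ways, 21 of them higher in set 1 and lower in set 2. Of the 10261 genes tested, 2542 went opposite ways, 1020 of them higher in set 1 and lower in set 2. These signs hold for the deposited scale. With each library divided by its own FPKM total, the members' median log2 ratio turned to 0.25 in set 1 and 0.15 in set 2, and the mean change of the median gene tested went from -0.41 to -0.01. Relative to the median of all genes tested, which such scaling leaves nearly in place, 69 members lay above it in set 1 and 38 in set 2.

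Level moved with these values. With the genes tested divided by mean FPKM into 5 bins of equal size, 40 members lay in the highest bin and 25 in the next. In set 1 the median log2 ratio of all genes rose from -0.88 in the lowest bin to -0.23 in the highest bin; in set 2 it went from -0.22 to -0.38. The 40 members of the highest bin had medians of -0.07 in set 1 and -0.36 in set 2, and the 25 of the next had -0.10 and -0.39, beside -0.35 and -0.37 for all genes of that bin. In set 1 members thus stood above the genes of their own bin, and in set 2 near them. Members also have shorter annotated transcripts, with a median of 1339 bases against 3081 for genes tested. The part of length here was not tested.

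Across the 73 members, log2 ratios of set 1 and set 2 had Pearson r = 0.30 and Spearman rho = 0.23. Without Mrpl52 these were 0.17 and 0.19 (n = 72 genes). Over all genes tested r was 0.031 and rho 0.0041, so log2 ratios of the sets were nearly unrelated there. The members spread less than other genes. Leaving out Mrpl52, their log2 ratios had an SD of 0.26 in set 1 and 0.26 in set 2, against 0.53 and 0.45 for all genes tested, which include many of low level.

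**Figure D2:**
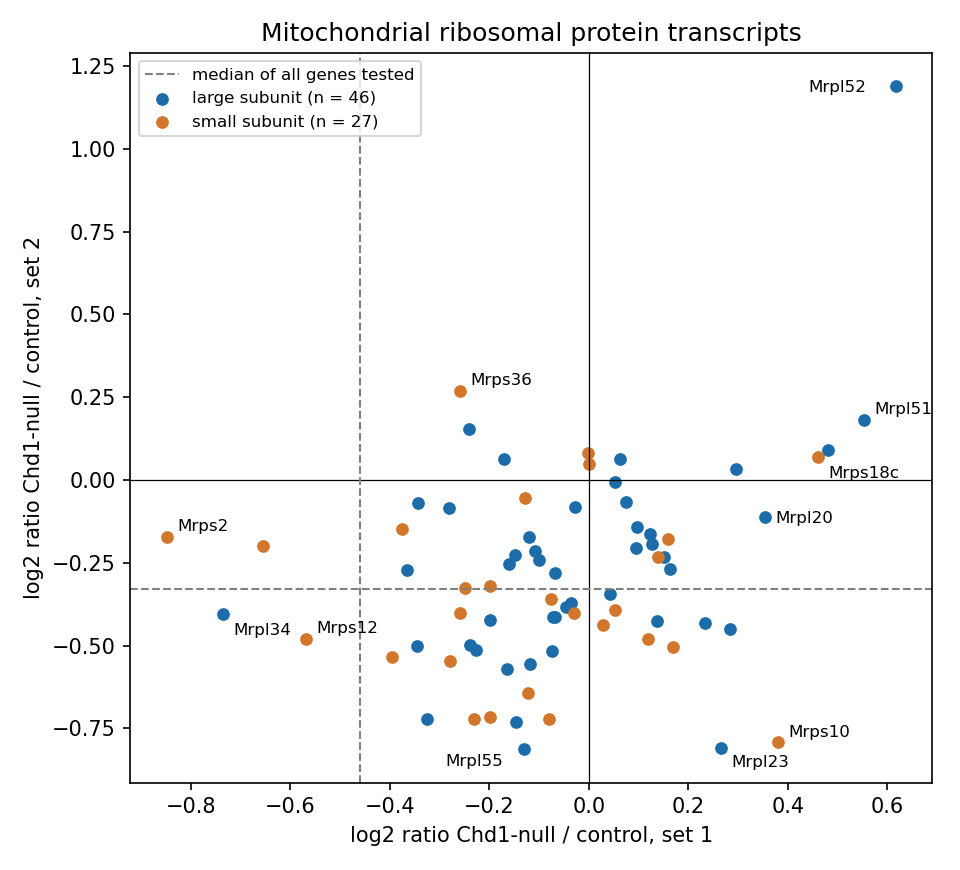
Log2 ratio of Chd1-null over control in set 1 (x) and set 2 (y) for each member, large subunit in blue and small subunit in orange; dashed lines mark the medians of all genes tested (-0.46 and -0.33). Most members lie to the right of the vertical dashed line and on both sides of the horizontal one, and Mrpl52 stands alone at upper right (0.62 and 1.19).

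In the fit over all genes (limma with set as a block, Benjamini-Hochberg adjustment), 2 members fell, or 2.74%, beside 9.80% of all genes tested. At an unadjusted p under 0.05, 13 members were lower, beside 28.9% of all genes tested. Apart from Mrpl52 no member rose in limma, adjusted or at an unadjusted p under 0.05, where 0.0682% and 0.263% of all genes tested rose. Because Mrpl52 was picked on this contrast, nothing is read from these counts. The 2 members that fell were Mrpl34 and Mrps12.

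Mrps12 is the protein at the decoding centre of the small subunit, homologous to the bacterial protein in which streptomycin resistance arises. In set 1 it read 103.1 FPKM (control) against 69.5 (Chd1-null), and in set 2 it read 131.4 against 94.2. Both Chd1-null values lay below both control values, in tables that may have been scaled apart. It fell by 0.52 on the log2 scale (limma SE 0.17, adjusted p = 0.031, n = 2 pairs), with log2 ratios of -0.57 and -0.48.

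Mrpl34 is a small conserved protein of the large subunit. Set 1 gave 42.0 FPKM (control) against 25.2 (Chd1-null), and set 2 gave 50.4 against 38.0. Again the Chd1-null libraries were the lower ones, with log2 ratios of -0.74 and -0.41. It fell by 0.57 (limma SE 0.19, adjusted p = 0.034, n = 2 pairs). Mrps12 and Mrpl34 were the only members below the median of all genes tested in both sets, where 24.6% of all genes lay. This uses the same log2 ratios as the fit and adds no support. Neither call was made with a mean of at least 5 FPKM as the filter, nor without the block, with one common prior variance, or after division by library totals. Relative to each set's median change, their mean log2 ratios were only -0.13 and -0.18 (limma adjusted p = 0.998 for each).

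Other members had mean changes nearly as low without passing. Pairs of values below are given as control to Chd1-null. Mrpl37, named after its values were seen, went from 30.9 to 24.6 FPKM (set 1), 37.4 to 22.6 (set 2). Its mean log2 ratio was -0.52 (limma adjusted p = 0.068). Mrps30 went from 50.6 to 43.1 FPKM (set 1), 54.4 to 33.0 (set 2; mean log2 ratio -0.48, limma adjusted p = 0.073). Mrps2 went from 15.5 to 8.54 FPKM (set 1), 13.6 to 12.04 (set 2; mean log2 ratio -0.51, limma adjusted p = 0.15). Mrps2 had the lowest log2 ratio of all members in set 1, -0.85, and stood above the median of all genes tested in set 2, at -0.17.

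Relative to each set's median change, 0 members fell and, Mrpl52 aside, 0 rose in limma, where 0.214% of all genes tested fell and 0.146% rose. At an unadjusted p under 0.05, 0 of the other 72 were lower than the median change, beside 3.53% of all genes tested, and 5 were higher, beside 2.76%. Members lay above the median gene in both sets more often than below: 36 of 73 (49.3%, against 24.6% of all genes tested). Within level bins the contrast was smaller. In the highest of the 5 bins these shares were 47.5% of members against 33.4% of all genes, and in the next 40% against 28.4%.

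The promoters of Mrpl52 and of the 2 members that fell are shown as the 250 bases before the RefSeq start (build GRCm38.p6), with matches to the motifs searched in capitals. The Mrpl52 promoter is chr14:54426659-54426908 on the plus strand, that of Mrpl34 chr8:71464676-71464925 on the plus strand, and that of Mrps12 chr7:28741822-28742071 on the minus strand.
Mrpl52: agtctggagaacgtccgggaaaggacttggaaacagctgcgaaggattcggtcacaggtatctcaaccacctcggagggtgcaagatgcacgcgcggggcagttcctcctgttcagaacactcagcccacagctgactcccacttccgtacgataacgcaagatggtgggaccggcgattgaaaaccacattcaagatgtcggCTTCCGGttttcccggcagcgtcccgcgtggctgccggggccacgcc
Mrpl34: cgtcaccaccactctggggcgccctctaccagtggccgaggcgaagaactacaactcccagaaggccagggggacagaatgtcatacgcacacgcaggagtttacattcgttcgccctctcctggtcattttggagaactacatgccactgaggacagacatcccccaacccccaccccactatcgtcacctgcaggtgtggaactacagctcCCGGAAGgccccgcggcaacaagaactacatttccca
Mrps12: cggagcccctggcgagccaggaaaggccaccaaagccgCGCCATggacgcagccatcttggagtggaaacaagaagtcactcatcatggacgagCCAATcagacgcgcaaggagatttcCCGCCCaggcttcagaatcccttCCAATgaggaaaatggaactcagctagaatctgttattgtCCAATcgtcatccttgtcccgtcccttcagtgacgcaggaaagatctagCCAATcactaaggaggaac
In this window Mrpl52 and Mrpl34 each held 1 ETS motif and no other motif searched, while Mrps12 held 4 CCAAT boxes, 1 YY1 and 1 SP1 motif.

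Over the whole family, 65 members had an entry in the RefSeq promoter table, with 71 promoters of 300 bases (250 before the start and 50 after). Motifs were searched on both strands by exact letters, and none contains another, though matches can overlap. The ETS motif CCGGAAG, bound by GABP among others, was in 32.4% of member promoters, 19.0% of promoters of genes tested and 8.86% of all promoters in the table. The YY1 motif ATGGCG was in 23.9%, 16.2% and 8.93%, and the NRF1 core GCGCATGC in 11.3%, 5.81% and 2.71%. GABP, YY1 and NRF1 are known as regulators of nuclear genes for mitochondria. The SP1 motif GGGCGG went the other way against genes tested, at 52.1%, 65.6% and 35.7%. The CCAAT box was in 40.8%, 38.4% and 37.4%. TATAAA was in 7.04%, 6.53% and 13.6%, and the E-box CACGTG in 9.86%, 10.47% and 7.15%. These are matches of letters, not measured binding.

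Mrpl52, a mitochondria-specific protein of the large subunit, stood apart from the rest of the family. Set 1 gave 49.0 FPKM (control) against 75.2 (Chd1-null), and set 2 gave 28.6 against 65.3. Both Chd1-null values exceeded both control values, in tables that may have been scaled apart. Mrpl52 was chosen on this contrast, so such separation can follow from the choice. The Chd1-null library held 1.54 times the control value in set 1 and 2.28 times in set 2, log2 ratios of 0.62 and 1.19 (mean 0.90 ± 0.40, SD, n = 2). In order of level among the 73 members it went from place 26 in control 1 and place 51 in control 2 to place 13 in each Chd1-null library. The control libraries differed more from each other than the Chd1-null libraries did.

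How far Mrpl52 stood out differed by set. In set 1 the next member was Mrpl51, at a log2 ratio of 0.55, only 0.064 below it. In set 2 the next was Mrps36 at 0.27, a gap of 0.92. Among all genes tested, 99 had a higher log2 ratio than Mrpl52 in set 1 and 51 in set 2. At or above its value in both sets stood 5 other genes. Relative to the set medians its log2 ratios were 1.08 and 1.52.

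Mrpl52 has the shortest annotated transcript of the family by 1 measure, 463 bases for the longest protein-coding transcript in GENCODE M21, where the median member has 1339 bases and the median gene tested 3081. Scaling to length weighs most on such genes, and the part of length in this result was not tested. The next shortest members differed in direction. Mrpl33, of 478 bases, had log2 ratios of 0.08 and -0.07, and Mrps21, of 488 bases, had -0.28 and -0.55. Mrpl54, of 604 bases, had 0.48 and 0.09, and Mrpl34, of 607 bases, had -0.74 and -0.41. All genes under 1000 bases had median log2 ratios of -0.13 in set 1 and -0.43 in set 2. Those of 1000 bases or more had -0.47 and -0.32. Over 9625 genes tested, length and log2 ratio had Spearman rho = -0.40 in set 1 and 0.23 in set 2. Across the 73 members rho was -0.16 and -0.06. Members are short, with 28.8% under 1000 bases beside 5.13% of genes tested. The part of length in the family's values was not tested. The 21 members under 1000 bases had medians of 0.00072 and -0.20, and the other members -0.10 and -0.36.

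The genes on each side of Mrpl52 in the RefSeq gene table are Slc7a7, an amino acid transporter, and Mmp14, a membrane metalloproteinase. Slc7a7 went from 48.4 to 34.7 FPKM (set 1), 42.1 to 40.2 (set 2; mean log2 ratio -0.27, limma adjusted p = 0.30). Mmp14 went from 17.3 to 8.37 FPKM (set 1), 14.6 to 10.3 (set 2), and fell by 0.77 on the log2 scale (limma adjusted p = 0.030). Its call was lost with a mean of at least 5 FPKM, one common prior variance, no block or library totals, where limma adjusted p ran from 0.064 to 0.98. Neither neighbour was higher in Chd1-null cells in either set. No annotated gene in that table overlaps Mrpl52. For 22 other members one does, and whether fragments were counted by strand is not given in the sources used here, so values of those members are less certain, as are those of the members with 1 or more of the 6 named pseudogenes.

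**Figure D3:**
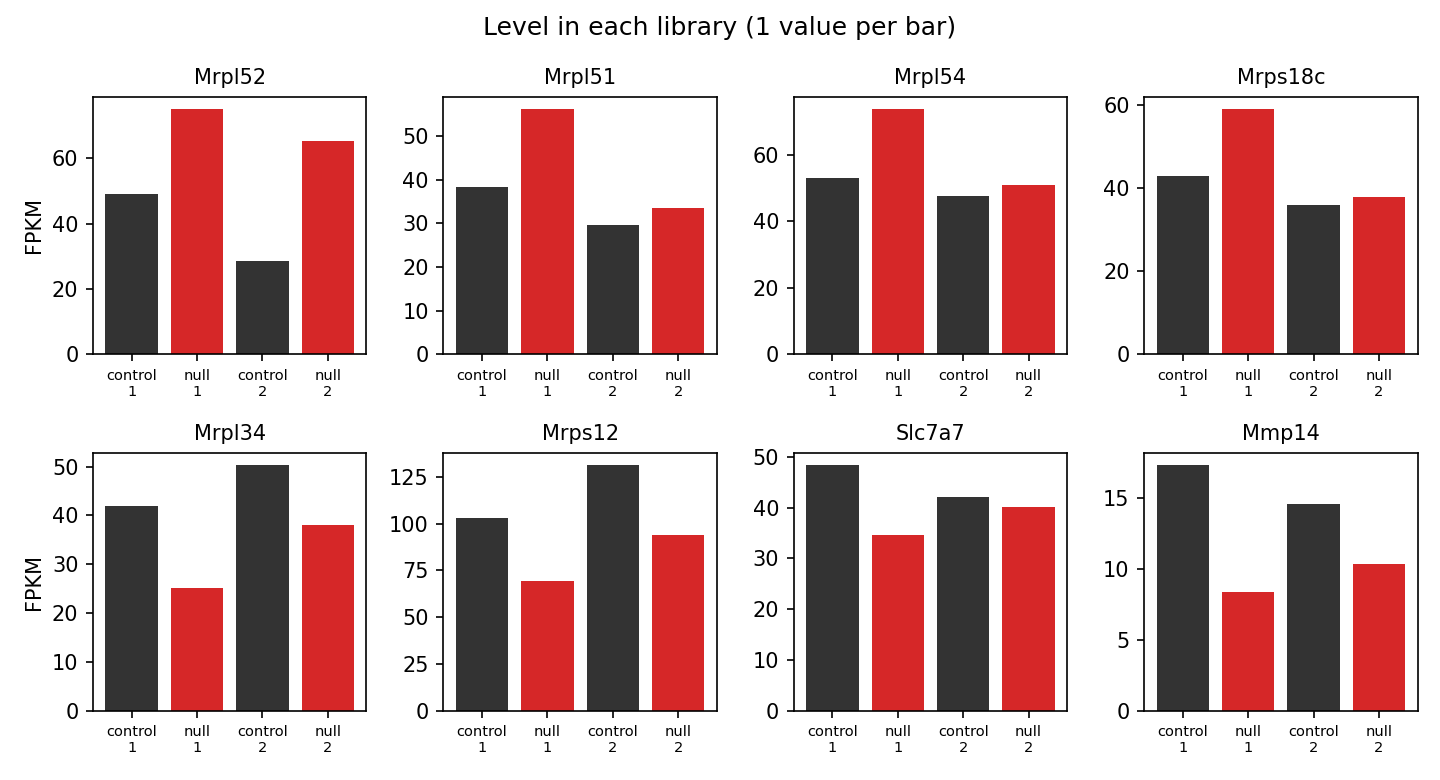
FPKM in each of the 4 libraries, 1 value per bar, for Mrpl52, the 3 next highest members by mean change, the 2 members that fell and both neighbours of Mrpl52; each panel has its own axis from 0. Mrpl52 is higher in both Chd1-null libraries (75.2 and 65.3 against 49.0 and 28.6), while Mrpl34, Mrps12 and both neighbours are lower in each set.

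A small group was, like Mrpl52, above its control in both sets, with values near that of Mrpl52 in set 1 for Mrpl51 and well below it in set 2 for every one. Mrpl51, mitochondria-specific, went from 38.3 to 56.3 FPKM (set 1), 29.6 to 33.6 (set 2; limma adjusted p = 0.17). Mrpl54, also mitochondria-specific, went from 52.9 to 73.9 FPKM (set 1), 47.7 to 50.9 (set 2; limma adjusted p = 0.26). Mrps18c, a relative of bacterial S18, went from 43.0 to 59.2 FPKM (set 1), 36.0 to 37.8 (set 2; limma adjusted p = 0.31). All 3 were higher mainly in set 1, with log2 ratios of 0.55, 0.48 and 0.46 there and of 0.18, 0.09 and 0.07 in set 2. Mrpl18, a conserved large subunit protein, had 0.30 and 0.03. The remaining members above their control in both sets, named after their values were seen, were Mrpl11 (0.06 and 0.06) and Mrps24 (0.00072 and 0.05).

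Large subunit members were slightly higher than small subunit members in Chd1-null against control cells in both sets. The median log2 ratio was -0.07 for Mrpl and -0.12 for Mrps in set 1, and -0.26 and -0.39 in set 2. The differences, 0.055 and 0.13, were small beside the spread among members, and without Mrpl52 they were 0.054 and 0.12. Members of a subunit are not replicates, so this was not tested. Of 46 Mrpl members 27 were lower in set 1 and 39 in set 2. Of 27 Mrps members 18 and 23 were lower, beside 87.3% and 82.4% of all genes tested. Each subunit held 1 of the 2 members that fell. Above both medians of all genes tested stood 26 of 46 Mrpl (56.5%) and 10 of 27 Mrps (37.04%), beside 24.6% of all genes. In the highest level bin this share of all genes was 33.4%, and in the next 28.4%. Mrpl members had the higher median level in each control, and the part of level was not tested.

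**Figure D4:**
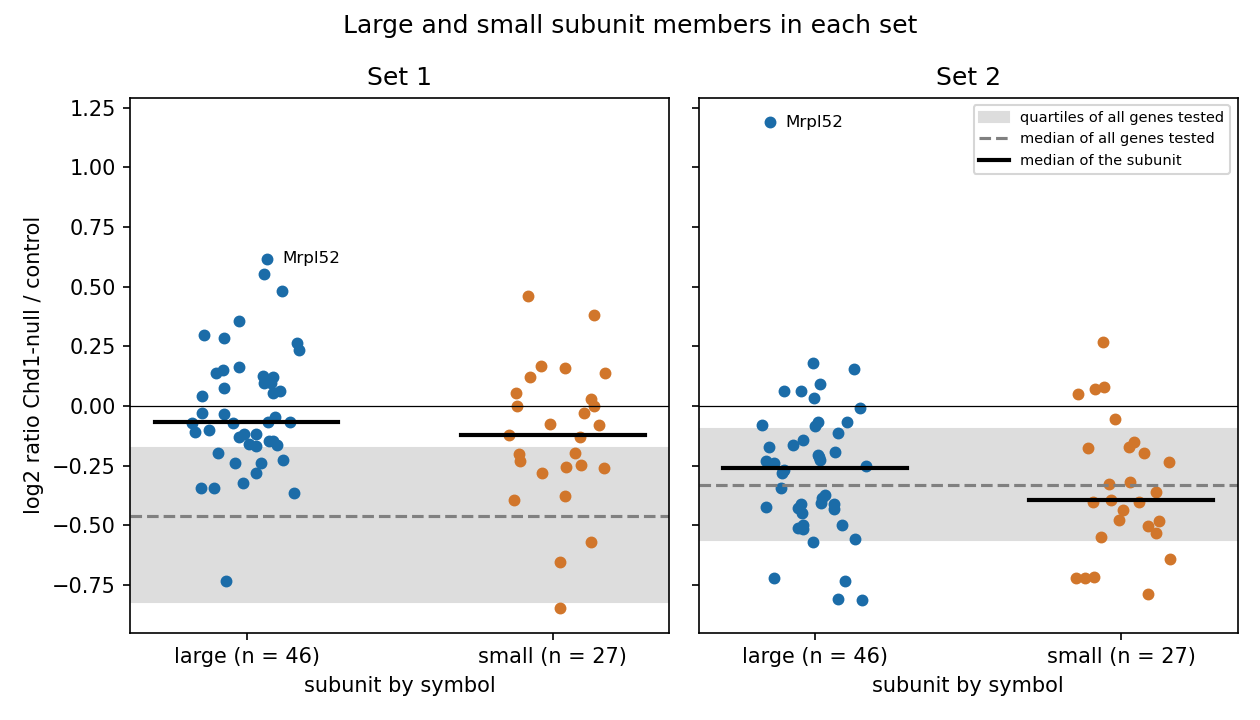
Log2 ratio of Chd1-null over control for each member by subunit in set 1 and set 2; points are genes, black bars subunit medians, the dashed line and grey band the median and quartiles of all genes tested. In set 1 both subunit medians (-0.07 and -0.12) lie above the grey band, and in set 2 (-0.26 and -0.39) they lie inside it on either side of the dashed line.

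The symbol does not always give the subunit. Mrps30 and Mrps18a are now placed in the large subunit, and Mrps36 is known as a subunit of the 2-oxoglutarate dehydrogenase complex. Sorted by structure, the large minus small difference was 0.034 in set 1 and 0.11 in set 2. Mrps36 went from 8.68 to 7.24 FPKM (set 1), 7.73 to 9.33 (set 2). The 3 relatives of bacterial S18 differed from each other, and Mrps18c is the one at the bacterial position. Mrps18a had log2 ratios of 0.12 and -0.48, Mrps18b, at 78.4 to 78.4 FPKM (set 1), 56.7 to 60.0 (set 2), had -0.0014 and 0.08, and Mrps18c had 0.46 and 0.07.

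By ancestry, with Mrps18a and Mrps18b counted as mitochondria-specific despite their relation to S18, the 45 members with a bacterial homolog had median log2 ratios of -0.07 and -0.28, and the 27 mitochondria-specific members -0.11 and -0.33. In set 1, 27 of 45 (60.0%) and 17 of 27 (63.0%) were lower, beside 87.3% of all genes tested. In set 2, 39 of 45 (86.7%) and 23 of 27 (85.2%) were lower, beside 82.4%. The 2 members that fell have bacterial homologs, 4.44% of the 45, beside 9.80% of all genes tested. The stalk proteins Mrpl10 and Mrpl12, which recruit translation factors, were lower in each set without passing. Mrpl10 had log2 ratios of -0.20 and -0.42 (limma adjusted p = 0.23) and Mrpl12 of -0.12 and -0.17 (limma adjusted p = 0.54).

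Some members went strongly opposite ways in the sets. Mrps10, a conserved protein of the small subunit head, went from 14.0 to 18.3 FPKM (set 1), 16.1 to 9.27 (set 2). Mrpl23, at the exit of the peptide tunnel, went from 20.0 to 24.1 FPKM (set 1), 28.6 to 16.3 (set 2). Their log2 ratios were 0.38 and -0.79, and 0.26 and -0.81. For both genes the set 2 control was the higher of the controls and the set 2 Chd1-null library the lowest of the 4.

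Other genes of mitochondrial translation were taken from a list of 47, of which 43 were tested: 7 subunits with other symbols, 14 translation factors and 22 assembly factors. Of these, 4 fell (9.30%, beside 9.80% of all genes tested) and 0 rose in limma (0 at an unadjusted p under 0.05). Medians were -0.29 in set 1 and -0.25 in set 2. Their median was thus below that of the ribosomal proteins in set 1 (-0.07) and above it in set 2 (-0.32). The list also stood at lower levels, with a median of 12.5 FPKM against 39.4 for the members. The part of level in this difference was not tested. Relative to the median change 0 passed in limma in either direction, beside 0.214% of all genes tested that fell and 0.146% that rose. At an unadjusted p under 0.05, 3 of the list were higher and 0 lower, beside 2.76% and 3.53% of all genes tested.

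Among subunits with other symbols, Ict1, a peptidyl-tRNA hydrolase built into the large subunit, fell by 0.55 (limma adjusted p = 0.022), from 104.7 to 68.8 FPKM (set 1), 129.3 to 91.2 (set 2). The 7 such subunits had medians of -0.07 and -0.44. Of translation factors, Tsfm, the mitochondrial elongation factor Ts, fell by 0.61 (limma adjusted p = 0.014), from 62.8 to 53.1 FPKM (set 1), 101.3 to 51.4 (set 2). Taco1, an activator of cytochrome oxidase subunit I translation, had a mean log2 ratio of -0.77 (limma adjusted p = 0.053).

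Of assembly factors, Gtpbp10, a GTPase of large subunit assembly, fell by 0.71 (limma adjusted p = 0.0077), from 41.3 to 29.7 FPKM (set 1), 51.3 to 26.7 (set 2). Ftsj2, a methyltransferase of the large ribosomal RNA, fell by 0.75 (limma adjusted p = 0.037), with log2 ratios of -0.71 and -0.80. Mrm1, another such methyltransferase, had a mean log2 ratio of -0.89 (limma adjusted p = 0.099). The highest were Mettl17, an assembly factor of the small subunit, at log2 ratios of 0.43 and 0.08, and Mpv17l2, at -0.16 and 0.52. With one common prior variance, without the block, with a mean of at least 5 FPKM as the filter or after division by library totals, 0 of the list passed.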

How the data were processed

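RNA was measured by strand-specific RNA-seq after depletion of ribosomal RNA, with 92 ERCC spike-in transcripts added, per the labels' protocols. The deposited values were taken as FPKM made by the authors, 1 table per set. The headers do not name the unit, which was inferred from the values and from the submitters' processing notes (TopHat2 2.0.10, TopHat, Cufflinks 2.2.0, Cuffdiff, mm9). How the spike-ins entered the scaling, the annotation and the strand setting are unstated in the labels and headers. The authors' deposited ratio column equals the quotient of both FPKM columns and was used only as a check. Read depth is unknown, so no counting intervals are given. Values below 0.1 FPKM do not occur in the tables.

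Loci without a symbol, of several genes, or with a repeated symbol were left out, and the sets were joined by symbol. Tests used limma 3.58.1 in R 4.3.3 on log2(FPKM + 0.1), which understates the change of low genes: lmFit with set as a block, eBayes with a variance trend, two-sided, over 10261 genes with a mean of at least 1 FPKM, adjusted p under 0.05. Set entered as a block, the sets having separate tables; library deviations within a set correlated across genes at r = 0.48. There is 1 residual degree of freedom and the prior degrees of freedom are infinite, so p-values rest on a spread shared by genes of similar level. The labels do not tie replicates to separate cultures beyond the set. The fitting code was run on simulated data whose changes were larger than most reported here, which tests the code and not its power at these sizes. The relative comparison subtracts each set's median log2 ratio.

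Members, lists and tests were chosen with earlier results of these data known. Named genes follow a rule: Mrpl52, members called, the highest and lowest by change (with 1 direction relative to the median in both sets) and by level, the largest differences between sets, members whose symbol and structure disagree, stalk and decoding proteins, the called and extreme genes of the pathway list, and neighbours of Mrpl52. Ancestry and structural placement were assigned from textbook knowledge. Transcript lengths come from GENCODE M21 (73 of 73 members matched by symbol, 9625 of 10261 genes tested). Promoters come from RefSeq (GRCm38.p6, 65 of 73 members). That build differs from the files' mm9, so it gave names, sequences and lengths only. Protein sequences were not used here.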

Additional observations from a re-analysis of the deposited data

Results flagged for a closer look

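Among the 34 genes named by rule, 10 had log2 ratios of Chd1-null over control of opposite sign in the 2 sets. Of these, 9 were among the 23 members so named. Over all genes tested, 2542 of 10261 went opposite ways. Mrps10 and Mrpl23 were named for their difference between sets. With 1 pair per set the difference between sets was not tested. Higher in set 1 and lower in set 2 were Mrps10 (0.38 and -0.79), Mrpl23 (0.26 and -0.81), Mrps18a (0.12 and -0.48), Mrpl13 (0.042 and -0.34), Mrpl24 (0.15 and -0.23), Mrpl20 (0.35 and -0.11) and Mrpl17 (0.12 and -0.16). Lower in set 1 and higher in set 2 were Mrps36 (-0.26 and 0.27), Mrps18b (-0.0014 and 0.080) and Mpv17l2 (-0.16 and 0.52). Chd1 kept 20.7% of its control value in set 1 and 47.7% in set 2; its part in these differences was not tested.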

How the results depend on the processing

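The counts of calls depended on the variance model, the block, the filter and the scaling, and the cause was not tested. The members that fell went from 2 to 0 with a mean of at least 5 FPKM, with one common prior variance, with no replicate block and with library totals. Over all genes, where 1006 fell and 7 rose, these settings gave 225 and 2, 0 and 0, 0 and 0, and 37 and 50. Leaving out Mrpl52, which was chosen on this contrast, the members that rose went from 0 to 5 with library totals (Mrpl18, Mrpl20, Mrpl51, Mrpl54 and Mrps18c). Without the block the lowest adjusted p of the other members was 0.461 in limma, and 0 of them passed at an unadjusted p under 0.05. The pathway genes that fell went from 4 to 0 with one common prior variance, with no replicate block and, in settings added after seeing the data, with a mean of at least 5 FPKM and with library totals. In the relative comparison, where 22 genes fell and 15 rose, subtracting the level trend left 9 and 4, a mean of at least 5 FPKM 3 and 2, and one common prior variance or no replicate block 0 and 0; none of the other 72 members passed under any setting of it. With only 2 sets, leaving one out leaves no test.

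Library totals moved the members' median log2 ratio to 0.25 and 0.15, the number lower to 10 and 20, and Mrpl52 in set 2 to 1.66. They turned the mean change of 12 named genes to positive values: Mrps10 0.19, Mrpl23 0.13, Mrpl13 0.25, Mrpl24 0.36, Mrpl28 0.16, Mrpl41 0.33, Mrpl17 0.37, Mrps25 0.30, Mrps18a 0.22, Mrpl10 0.088, Mrpl12 0.25 and Slc7a7 0.12. Relative to the set median, Mrpl52 in set 1 was 1.08. With means in place of medians the large minus small difference in set 1 was 0.11. The difference by ancestry stayed small: without Mrpl52 it was 0.052 and 0.079, and with a pseudocount of 1 it was 0.065 in set 2.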

Other observations

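Symbols of the family outside the 73 members share a locus with another gene in at least 1 table. The locus of Mrps6 and Slc5a3, a myo-inositol transporter, read 14.6 (control) and 7.29 FPKM (Chd1-null) in set 1, 8.48 and 9.88 in set 2. The locus of Ccdc142 and Mrpl53 read 34.3 (control) and 27.9 FPKM (Chd1-null) in set 1, 36.8 and 29.0 in set 2. Mrps34 had a locus of its own in set 1, with 37.9 (control) and 40.1 FPKM (Chd1-null). In set 2 it was merged with Nme3, at 39.9 and 39.6 FPKM. Values of merged loci cannot be divided between their genes.

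By subunit, the NRF1 core was in 15.6% of 45 Mrpl promoters and 3.85% of 26 Mrps promoters, and the ETS motif in 26.7% and 42.3%. These shares were looked at after the values were seen and were not tested.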
